A study of Mus musculus with 8 samples.

Results

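Sphingosine 1-phosphate is a lipid messenger made from sphingosine, which ceramidases release from ceramide. Sphingosine kinases phosphorylate it, a phosphatase turns it back into sphingosine, and a lyase degrades it irreversibly. Cells export it and sense it through G protein-coupled receptors that guide lymphocyte exit from tissues and keep blood vessels tight. Red cells, which lack the lyase, are a known store of it in blood. The genes described here were the ceramidases Asah1 and Acer2, the kinases Sphk1 and Sphk2, the phosphatase Sgpp1, the lyase Sgpl1 and the receptors S1pr1 and S1pr2, 8 of the 18193 symbols on the array. They were picked by name, with earlier results of these data known. Every probe set annotated with 1 of these symbols alone was read, which gave 15 of the 45101 probe sets. Of these 15, 12 had a mean above a signal of 100 (6.64 on the log2 scale) in KO or WT livers and were tested. The other 3 were below it in both groups.

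RNA from whole fetal livers of E14.5 mouse embryos, taken without culture, was hybridised to Affymetrix arrays. The 4 KO arrays carried RNA from embryos homozygous for a knockout of Eklf (Klf1), the zinc-finger activator of erythroid genes that binds CACCC motifs, and 4 WT arrays carried RNA from embryos with an intact Eklf. The methods name B6 lines made with a BAC construct of an engineered Eklf locus and with E2A-Cre mice, a strain whose Cre acts in the early embryo. The fetal liver at this age holds erythroid cells at many stages beside hepatocytes, vessels and other blood cells, so in these bulk samples fewer cells of a type and less RNA per cell cannot be told apart. Nothing in the labels tells whether the arrays of a group came from separate litters, and p-values measure only the spread between these arrays.

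Klf1, the targeted gene, was read first. Its log2 signal was 10.81, 10.56, 10.65 and 10.59 in KO livers, against 14.04, 13.87, 13.98 and 13.90 in WT livers, a difference of -3.29 (SE 0.099, limma adjusted p = 5.9e-07). Every KO array was below every WT array, and whether this probe set lies in the deleted part was not analysed here. The titles carry 1 code for all KO arrays and another for all WT arrays, and the labels do not say what it stands for, so whatever the code marks and genotype cannot be told apart. WT replicate 1 stood apart in sex-linked genes, with a log2 signal of 13.03 for Xist and 3.41 for Kdm5d, where the KO arrays held 5.37 to 6.09 and 9.26 to 9.54 and the other WT arrays 6.17 to 6.84 and 8.93 to 9.17. KO replicate 5 stood apart in myeloid markers, with a mean log2 level of 13.42 over granulocyte markers and 10.86 over macrophage markers, where the other KO arrays held 11.88 to 12.04 and 9.83 to 10.18 and the WT arrays 11.70 to 11.92 and 10.35 to 10.66. The 7 calls among the S1P probe sets were all kept when either array was left out. Signs of RNA quality also differed: the 3-prime less 5-prime log2 signal was 0.55 ± 0.062 in KO and 0.85 ± 0.080 in WT arrays for Actb, and 2.21 ± 0.35 in KO and 1.79 ± 0.092 in WT arrays for Tfrc (SD, n = 4 each). These ratios went in opposite directions, lower in KO for Actb and higher for Tfrc, and their part in the results was not tested. Hybridisation controls, added in equal amount to each array, averaged 11.68 ± 0.13 in KO arrays and 12.43 ± 0.084 in WT arrays on the deposited log2 scale (SD, n = 4 each).

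Across the array, 12195 of 23379 tested probe sets differed between KO and WT livers at an adjusted p under 0.05, or 52.2%, with 34.4% higher and 17.7% lower in KO. Of the 12 tested S1P probe sets, 3 were higher in KO, 4 lower and 5 not called, which is 58.3% called, near that background. KO and WT arrays did not overlap in 7 of the 12, against 49.8% of all tested probe sets. By the brightest probe set of each gene, Acer2, S1pr1 and S1pr2 were higher, Sphk1 and Sgpp1 were lower, and Asah1, Sphk2 and Sgpl1 were not called, so that 62.5% of the 8 genes were called, against 46.5% of 11275 genes. Each of the 5 called genes reached an exact two-sided permutation p of 0.029, the smallest that 4 arrays against 4 allow. That value follows from the lack of overlap alone, so the 49.8% of tested probe sets without overlap reach it too.

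**Figure D1:**
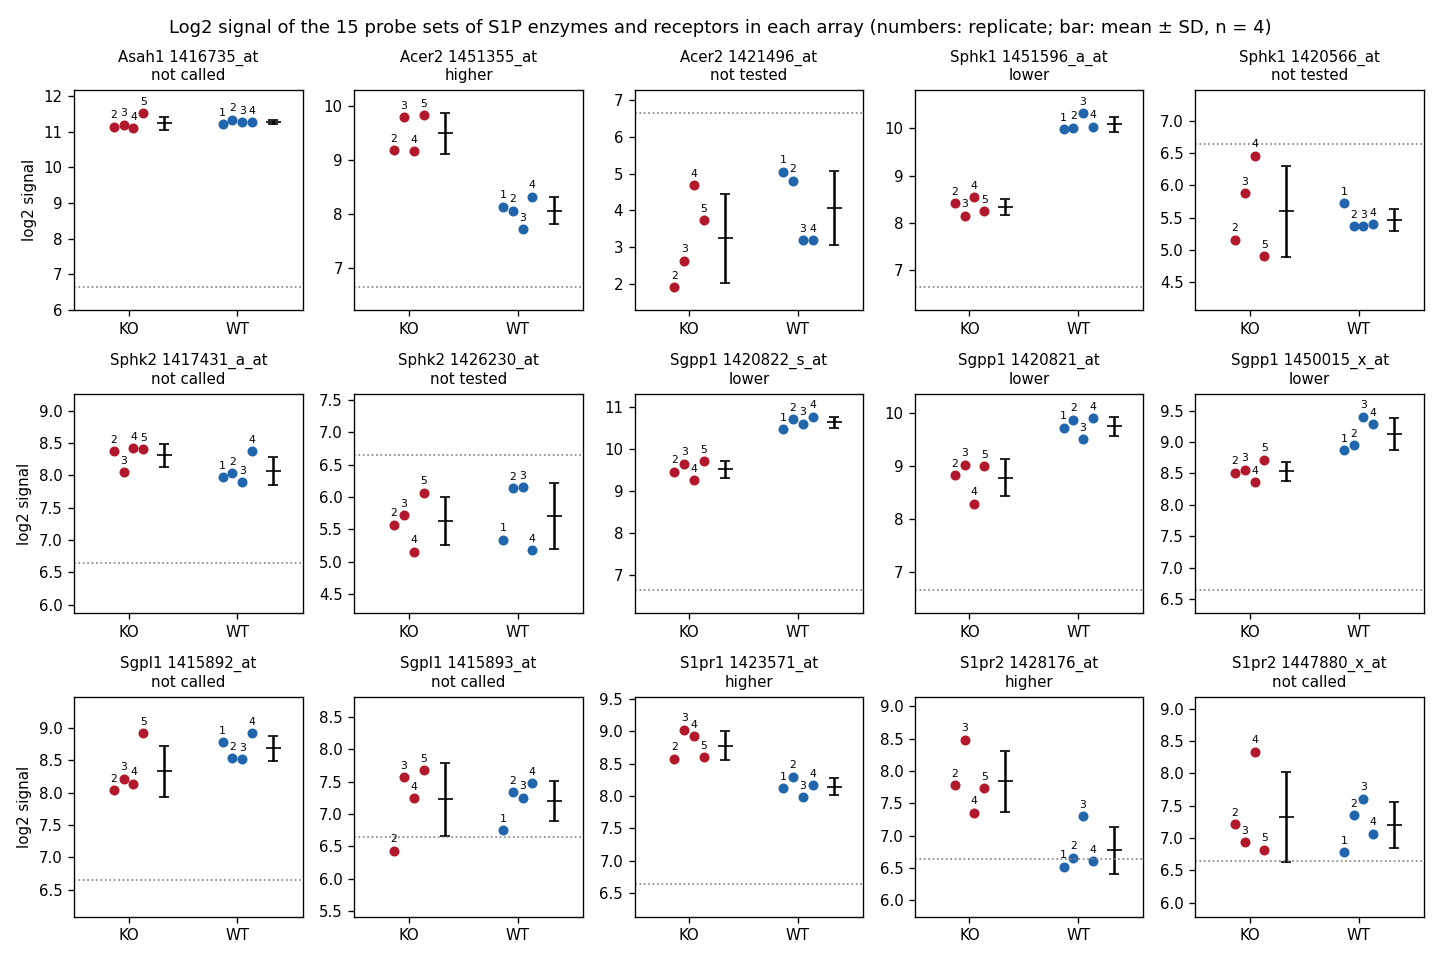
Log2 MAS5.0 signal (y axis) of each of the 15 probe sets in the 4 KO arrays (left in each panel) and the 4 WT arrays (right), with points for arrays, bars for the mean and SD and a dotted line at a signal of 100. Acer2 1451355_at lay between 9.16 and 9.83 in KO arrays and between 7.72 and 8.32 in WT arrays, and Sphk1 1451596_a_at between 8.15 and 8.54 in KO arrays and between 9.97 and 10.31 in WT arrays.

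Ceramidases supply the sphingosine. Asah1, the acid ceramidase of lysosomes, had log2 signals of 11.15, 11.20, 11.11 and 11.52 in KO livers, against 11.21, 11.34, 11.27 and 11.27 in WT livers. KO replicate 5 was the highest array, the groups overlapped, and the difference was -0.03 (95% interval -0.29 to 0.23, adjusted p = 0.84). Acer2, an alkaline ceramidase of the Golgi, was higher in KO livers. Its probe set 1451355_at had signals of 578, 884, 570 and 908 in KO livers, against 281, 267, 211 and 320 in WT livers, so that every KO array was above every WT array. On the log2 scale it averaged 9.49 ± 0.37 in KO livers and 8.06 ± 0.25 in WT livers (SD, n = 4 each), a rise of 1.43 (SE 0.20, 95% interval 0.97 to 1.89, adjusted p = 5.4e-04) or 2.69-fold. The second Acer2 probe set, 1421496_at, was under the signal of 100 in both groups, with means of 3.24 in KO and 4.06 in WT livers, and was not tested.

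The distance between the 2 ceramidases on the same array does not depend on the scaling factor of the array. Asah1 exceeded Acer2 by 1.97, 1.42, 1.95 and 1.69 log2 units in KO livers, against 3.08, 3.28, 3.55 and 2.95 in WT livers. The KO arrays all had the smaller distance, by 1.46 log2 units on average. The size of the distance itself compares different probes and carries no meaning.

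Sphk1, the cytosolic and plasma membrane kinase, had the largest difference of the 12 probe sets. Probe set 1451596_a_at had log2 signals of 8.41, 8.15, 8.54 and 8.24 in KO livers, against 9.97, 10.01, 10.31 and 10.03 in WT livers. All KO arrays lay more than 1 log2 unit below the lowest WT array. The fall was 1.75 on the log2 scale (SE 0.13, 95% interval of the difference -2.03 to -1.46, adjusted p = 1.7e-05), or 3.35-fold. Its second probe set, 1420566_at, was under the floor in both groups, at 5.60 ± 0.70 in KO and 5.47 ± 0.17 in WT livers (SD, n = 4 each). Sphk2, the kinase found in the nucleus and mitochondria as well, had log2 signals of 8.37, 8.05, 8.42 and 8.40 in KO livers, against 7.98, 8.03, 7.89 and 8.38 in WT livers at 1417431_a_at. WT replicate 4 reached the level of the KO arrays, and the difference of 0.24 was not called (95% interval -0.08 to 0.56, adjusted p = 0.17). With arrays scaled to the hybridisation controls, Sphk2 was called higher at 0.99 (adjusted p = 9.6e-04). Its other probe set, 1426230_at, was below the floor at 5.63 in KO and 5.70 in WT livers.

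Within an array, Sphk1 and Sphk2 changed by unequal amounts. The log2 signal of Sphk1 less that of Sphk2 was 0.04, 0.10, 0.12 and -0.16 in KO livers, against 2.00, 1.99, 2.42 and 1.66 in WT livers, an average of 0.03 ± 0.13 in KO and 2.01 ± 0.31 in WT (SD, n = 4 each). The groups did not overlap, and the difference between them, -1.99, is the same for any single scaling factor per array.

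**Figure D2:**
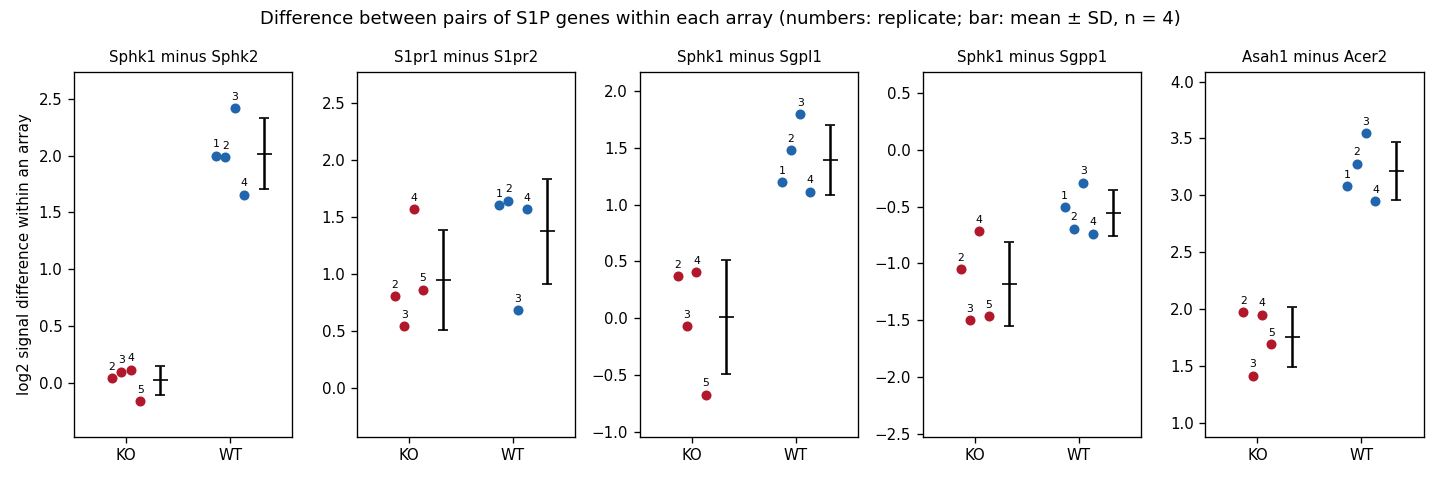
Differences in log2 signal (y axis) between pairs of S1P genes read on the same array, with KO arrays on the left and WT arrays on the right of each pair and bars for the mean and SD. Sphk1 less Sphk2 averaged 0.03 in KO arrays and 2.01 in WT arrays, and Asah1 less Acer2 averaged 1.76 in KO arrays and 3.21 in WT arrays.

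The promoters of the genes that moved are shown because EKLF binds CACCC sequences. RefSeq (GRCm38.p6) gave 11 promoter windows of 300 bases for 6 of the 8 genes, and S1pr1 and Asah1 were not among them. The motif searched was CACCC on either strand, read as GGGTG on the other, and matches are in capitals. It occurred in 57.5% of 32851 promoter windows of this length, and at least 2 matches in 25.7%. Sphk1 had 5 windows, of which 1 held no match and 4 held 3 or 4 each. Windows 2 and 3 overlap, as do windows 4 and 5. Window 2 of Sphk1 (chr11:116531587-116531886, plus strand) with 4 matches, window 4 (chr11:116532194-116532493, plus strand) with 3, that of Acer2 (chr4:86874164-86874463, plus strand) with 2, that of S1pr2 (chr9:20976744-20977043, minus strand) with 1 and that of Sgpp1 (chr12:75735680-75735979, minus strand) with 0 are given 5′ to 3′.
Sphk1 window 2: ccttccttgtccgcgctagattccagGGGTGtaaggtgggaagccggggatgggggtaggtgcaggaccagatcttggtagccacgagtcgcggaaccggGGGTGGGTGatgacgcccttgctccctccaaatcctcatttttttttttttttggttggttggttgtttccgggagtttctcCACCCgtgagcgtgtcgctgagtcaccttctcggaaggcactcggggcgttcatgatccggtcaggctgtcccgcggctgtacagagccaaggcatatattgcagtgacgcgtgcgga
Sphk1 window 4: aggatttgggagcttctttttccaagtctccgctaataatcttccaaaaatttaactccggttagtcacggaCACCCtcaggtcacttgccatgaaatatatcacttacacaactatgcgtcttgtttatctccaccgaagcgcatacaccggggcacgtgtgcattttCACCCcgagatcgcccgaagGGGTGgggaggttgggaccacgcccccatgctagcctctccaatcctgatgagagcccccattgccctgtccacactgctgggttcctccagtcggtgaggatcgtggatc
Acer2: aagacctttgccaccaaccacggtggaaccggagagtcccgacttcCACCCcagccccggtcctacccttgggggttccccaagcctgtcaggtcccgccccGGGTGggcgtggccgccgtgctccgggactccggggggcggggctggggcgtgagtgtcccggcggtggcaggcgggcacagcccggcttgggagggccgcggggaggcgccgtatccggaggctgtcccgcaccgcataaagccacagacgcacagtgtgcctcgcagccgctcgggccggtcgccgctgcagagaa
S1pr2: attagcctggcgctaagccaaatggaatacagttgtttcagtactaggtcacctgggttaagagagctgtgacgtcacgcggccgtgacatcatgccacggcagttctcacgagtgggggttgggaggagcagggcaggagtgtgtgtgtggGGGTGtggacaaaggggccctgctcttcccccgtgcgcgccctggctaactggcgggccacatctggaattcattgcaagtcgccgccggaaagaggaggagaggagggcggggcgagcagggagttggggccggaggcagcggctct
Sgpp1: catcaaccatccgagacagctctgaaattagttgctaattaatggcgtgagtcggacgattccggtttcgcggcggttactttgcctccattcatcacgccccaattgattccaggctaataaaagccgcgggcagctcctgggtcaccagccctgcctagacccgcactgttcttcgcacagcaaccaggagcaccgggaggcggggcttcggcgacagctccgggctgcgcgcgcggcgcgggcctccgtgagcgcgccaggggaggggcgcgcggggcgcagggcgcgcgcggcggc
Sphk2, which was not called, held 2 matches in each of its 2 windows, and Sgpl1 held none. The paper also gives a canonical EKLF binding sequence that allows other bases, and it was not searched here. A window without a CACCC match, such as that of Sgpp1, can therefore still hold that sequence. A match is a description of letters, and which start sites fetal liver uses was not analysed here. Whether EKLF binds these windows, and any link between matches and the direction of change, was not tested.

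Sgpp1, the phosphatase of the endoplasmic reticulum that returns S1P to sphingosine, fell at all 3 of its probe sets. These probe sets are annotated to 1 gene and are not independent. The brightest, 1420822_s_at, had log2 signals of 9.46, 9.65, 9.26 and 9.71 in KO livers, against 10.48, 10.71, 10.60 and 10.77 in WT livers. All KO arrays were below all WT arrays, and the level fell by 1.12 on the log2 scale (SE 0.13, adjusted p = 1.9e-04) or 2.17-fold. Probe set 1420821_at had 8.82, 9.03, 8.28 and 8.99 in KO livers, against 9.73, 9.88, 9.51 and 9.90 in WT livers, a fall of 1.96-fold (adjusted p = 0.0022). Probe set 1450015_x_at, whose suffix marks probes that can bind other transcripts, fell 1.51-fold (adjusted p = 0.0094), again with no overlap between the groups.

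Sgpl1, the lyase that ends the pathway, had log2 signals of 8.04, 8.22, 8.14 and 8.91 in KO livers, against 8.78, 8.54, 8.52 and 8.92 in WT livers at 1415892_at. The 3 KO arrays other than replicate 5 lay below every WT array, and KO replicate 5 reached the WT level. The difference of -0.36 was not called (95% interval -0.82 to 0.10, adjusted p = 0.16). It was called lower without KO replicate 5 (-0.56, adjusted p = 0.011), with quantile normalization (-0.68, adjusted p = 0.023) and at the 75th percentile (-0.63, adjusted p = 0.023). The dimmer probe set, 1415893_at, ranged from 6.43 to 7.68 in KO livers and 6.75 to 7.47 in WT livers (difference 0.03, 95% interval -0.61 to 0.66, adjusted p = 0.94). Sphk1 less Sgpl1 on the same array averaged 0.01 ± 0.50 in KO and 1.40 ± 0.31 in WT livers (SD, n = 4 each), with no overlap, whereas Sphk1 less Sgpp1 averaged -1.18 ± 0.37 in KO and -0.56 ± 0.21 in WT livers and overlapped.

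Both receptors among the 8 genes were higher in KO livers, S1pr2 at its brighter probe set only. S1pr1, the receptor of endothelium and lymphocytes that couples to Gi, had log2 signals of 8.58, 9.02, 8.92 and 8.59 in KO livers, against 8.12, 8.30, 7.98 and 8.17 in WT livers. The groups were separate, and the rise was 0.64 (SE 0.14, adjusted p = 0.0045) or 1.55-fold. S1pr2, a second S1P receptor, had 7.78, 8.48, 7.35 and 7.73 in KO livers, against 6.52, 6.66, 7.30 and 6.60 in WT livers at 1428176_at. KO replicate 4 and WT replicate 3 lay next to each other at the border between the groups, and the rise was 1.07 (SE 0.26, adjusted p = 0.0081) or 2.10-fold. Its second probe set, 1447880_x_at, gave 7.21, 6.94, 8.34 and 6.82 in KO livers, against 6.78, 7.35, 7.61 and 7.07 in WT livers, and was not called (difference 0.12, 95% interval -0.63 to 0.88, adjusted p = 0.77), so the S1pr2 probe sets disagree. S1pr1 less S1pr2 on the same array averaged 0.94 ± 0.44 in KO and 1.37 ± 0.46 in WT livers (SD, n = 4 each), and the groups overlapped. With quantile normalization neither receptor was called, S1pr1 at 0.31 (adjusted p = 0.086) and S1pr2 at 0.65 (adjusted p = 0.075).

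**Figure D3:**
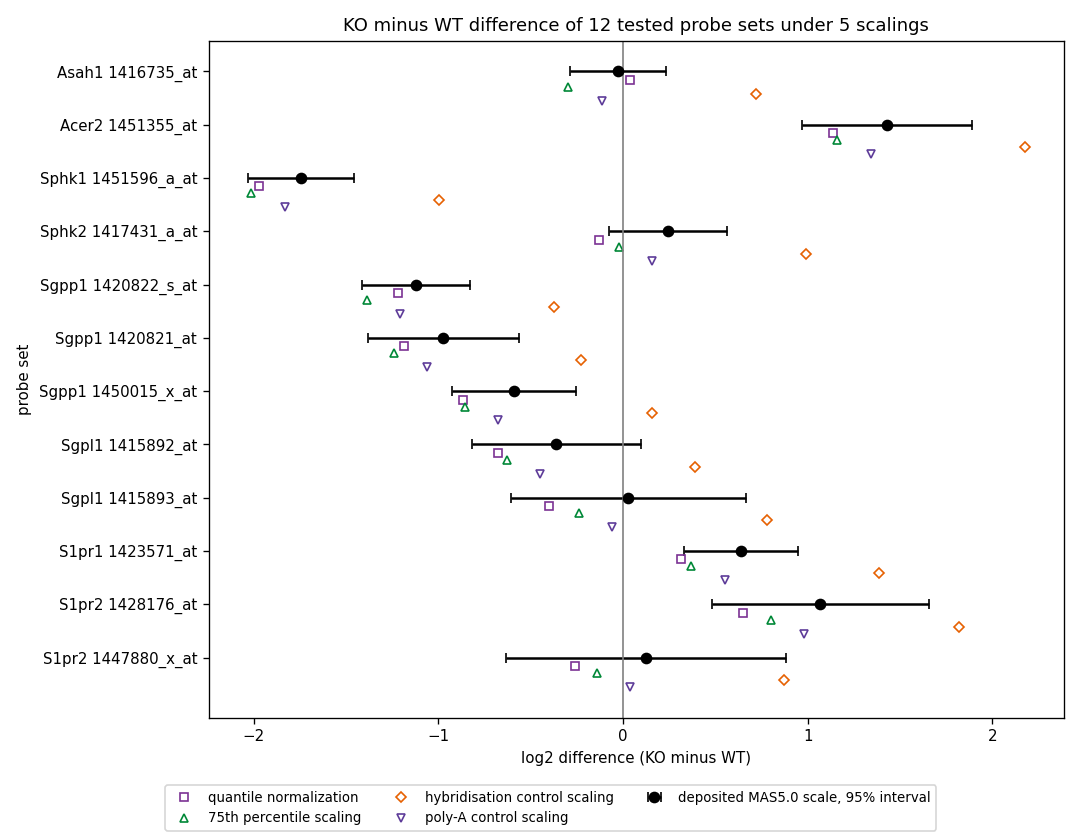
KO minus WT difference in log2 signal (x axis) of the 12 tested probe sets (y axis), with filled circles and bars for the deposited scale and its 95% interval and open symbols for 4 other scalings. Sphk1 1451596_a_at lay between -2.01 and -0.998 and Acer2 1451355_at between 1.14 and 2.18 under all 5, while Asah1 1416735_at ran from -0.30 to 0.72.

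The direction of a change rests on how the arrays are scaled. Taken over every probe set tested, KO minus WT had a median of 0.17 as deposited, -0.03 with quantile normalization, -0.12 with each array set to its 75th percentile, 0.08 with the poly-A controls and 0.95 with the hybridisation controls. Sphk1 and Acer2 were called in the same direction under each of these, Sphk1 between -2.01 and -0.998 and Acer2 between 1.14 and 2.18. Sgpp1 1420822_s_at also remained lower, between -1.39 and -0.37, but with hybridisation controls 1420821_at was at -0.23 (adjusted p = 0.26) and 1450015_x_at at 0.16 (adjusted p = 0.33).

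The rest of the sphingolipid pathway was read from a list of 51 genes, of which 38 were tested by their brightest probe set on the deposited scale. In KO livers 17 were higher, 4 were lower and 17 were not called, with a median difference of 0.41, against 0.06 over all 11275 genes, of which 25.5% were higher and 21.0% lower. These counts moved with the scaling, to 10 higher with quantile normalization and 5 higher and 11 lower at the 75th percentile, and the median of the list was then 0.15 and 0.13. Over all tested probe sets, 5441 of 23355 were higher with quantile normalization. At the 75th percentile, 5059 were higher and 7366 lower of 23256. Reading 1 probe set per gene left out disagreement between probe sets in several genes, 4 of them named after their values were seen. Dimmer probe sets gave -1.497 to -1.19 for Smpd4 (brightest -0.28), 1.23 and 1.40 for Abca1 (brightest -0.32), 2.31 for Plpp3 (brightest 0.13) and -0.54 for Smpd1 (brightest 0.44). In ceramide synthesis, 6 of 10 tested genes were higher and none lower. Cers5, a ceramide synthase, was higher by 0.66 (adjusted p = 8.6e-04), and Sptlc2, a subunit of serine palmitoyltransferase, the first enzyme of the pathway, by 0.65 (adjusted p = 0.0014).

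Genes of sphingomyelin and glycolipids were read next, with counts and single genes given on the deposited scale only. Sgms1, a sphingomyelin synthase of the Golgi, was higher by 0.82 (adjusted p = 6.9e-04) and Samd8, a related ceramide phosphoethanolamine synthase, by 0.52 (adjusted p = 0.022). Smpdl3a, a phosphodiesterase related to acid sphingomyelinase, fell by 1.32 on the log2 scale (adjusted p = 0.0026). In all, 3 of the 7 tested sphingomyelin genes were higher and 1 lower, against 25.5% higher and 21.0% lower over all genes. Of 6 tested genes of glycolipids and ceramide phosphate, 3 were higher and 1 lower, among them Psap, the precursor of saposins, at 0.60 (adjusted p = 0.014), Ugcg, glucosylceramide synthase, at 0.41 (adjusted p = 0.034) and Cptp, a ceramide 1-phosphate carrier, at -0.61 (adjusted p = 0.012). Beside Acer2, Asah2, the neutral ceramidase, was higher by 0.50 (adjusted p = 0.038) and Acer3, an alkaline ceramidase, lower by 0.53 (difference -0.53, adjusted p = 0.0021), while Acer1 and Sgpp2 were below the floor. Aldh3a2, which oxidises the aldehyde that the lyase makes, was higher by 0.41 (adjusted p = 0.0075).

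Exporters and carriers decide where S1P goes once it is made. Of 6 tested, 3 were higher in KO livers and 1 lower, against 25.5% higher and 21.0% lower over all genes. Counts and single genes here are also on the deposited scale only. Mfsd2b, the S1P exporter of red cells and platelets, had log2 signals of 11.53, 11.86, 11.41 and 11.90 in KO livers, against 10.78, 10.63, 10.73 and 10.94 in WT livers. The KO arrays were all above the WT arrays, by 0.91 (SE 0.14, adjusted p = 8.3e-04) or 1.87-fold higher. Its dimmer probe set averaged 9.20 in KO livers, while its WT mean was just under the floor. Abcc1, a transporter reported to carry S1P, rose by 1.55 (adjusted p = 1.8e-04). Spns2, the exporter of endothelium, named after its values were seen, was higher by 0.67 (adjusted p = 0.036) with overlap between arrays, and Apom, the plasma chaperone of S1P made by hepatocytes, fell by 0.37 on the log2 scale (adjusted p = 0.032). The other receptors, also named after their values were seen, were not called: S1pr3 differed by 0.55 (adjusted p = 0.075) and S1pr4 by -0.02 (adjusted p = 0.93), and S1pr5 was below the floor.

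Below the receptors, 6 of 15 tested G proteins and partners were higher and 2 lower, against 25.5% higher and 21.0% lower over all genes. The median of the list was 0.36, against 0.06 over all genes. This list was read on the deposited scale only. In Gnai2, Gna13 and Rock1, named after their values were seen, the brightest probe set was not called (-0.19, 0.36 and -0.18) while dimmer ones were called, up to 1.05, 2.85 and 1.00. Gnai3, a Gi subunit, rose by 1.10 (adjusted p = 2.2e-04) and Plcb3, a phospholipase C, by 0.85 (adjusted p = 0.0088). Arrb1, a beta-arrestin that turns receptors off, fell by 2.47 on the log2 scale (SE 0.14, adjusted p = 5.7e-06), a larger difference than that of any S1P gene. Plcb2, a phospholipase C of blood cells, was lower by 0.64 (difference -0.64, adjusted p = 0.029), with the KO mean under the floor.

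**Figure D4:**
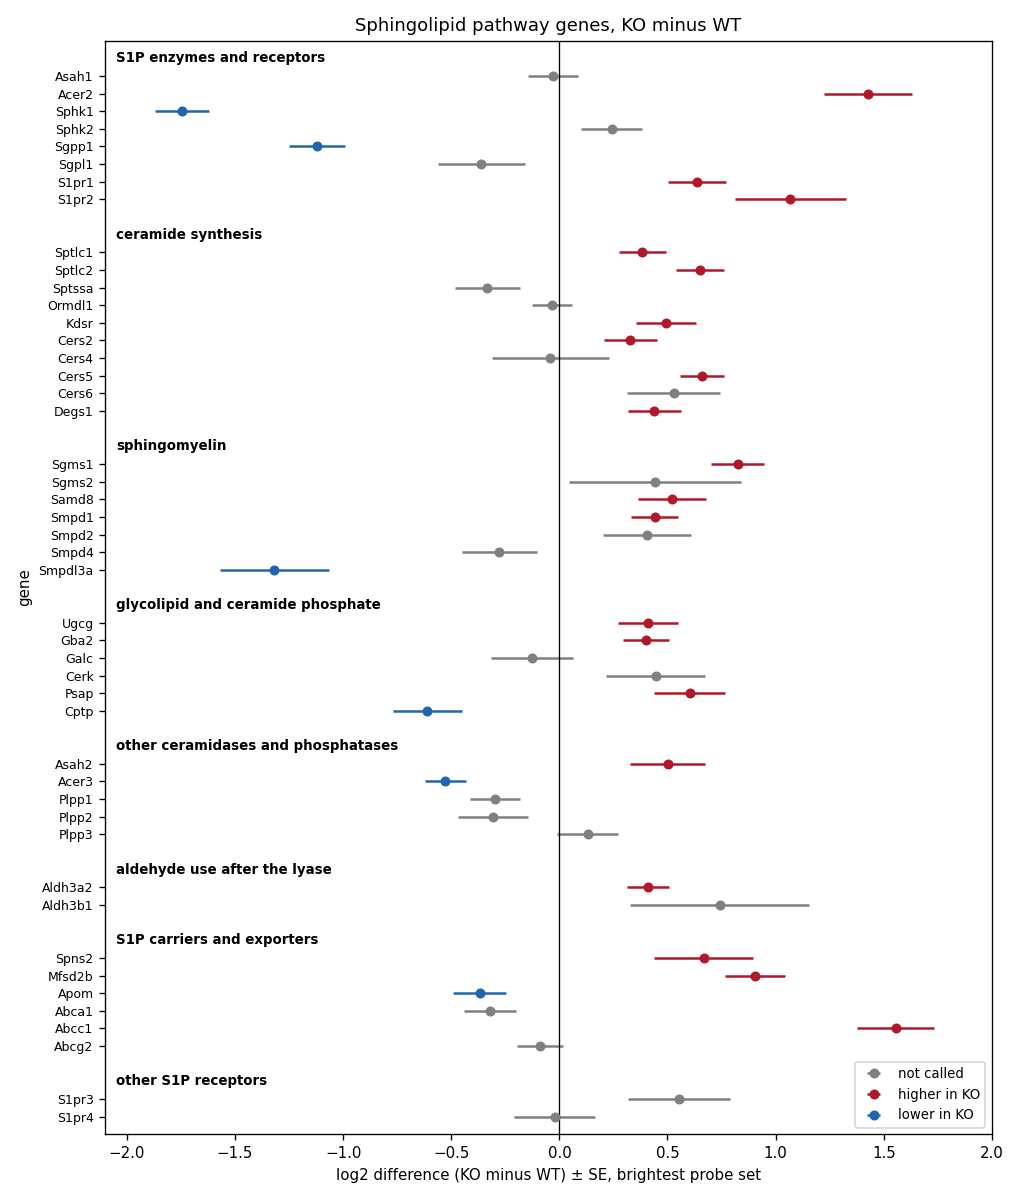
KO minus WT difference in log2 signal (x axis) of each tested S1P and wider sphingolipid gene by its brightest probe set, grouped by role (y axis), without the receptor coupling genes, with bars for the SE and red, blue and grey for genes higher in KO, lower in KO and not called. Sphk1 at -1.75 and Smpdl3a at -1.32 lie farthest to the left among these genes, and Abcc1 at 1.55 and Acer2 at 1.43 farthest to the right.

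Genes whose pattern was closest to Sphk1 and to Acer2 were found by the root mean square difference over the 8 arrays, after each WT mean was set to 0, among 11274 genes. Closest to Sphk1 were Tfrc, the transferrin receptor (0.12, KO minus WT -1.73), Lmo2, a transcription cofactor of blood formation (0.16, -1.89) and Ehbp1l1 (0.16, -1.68). Closest to Acer2 were Btnl9, a butyrophilin-like protein (0.12, 1.31), Abcc9, a subunit of ATP-sensitive potassium channels (0.14, 1.49), and Pdk2, a pyruvate dehydrogenase kinase (0.15, 1.34). The measure includes the size of the KO minus WT difference, so it does not isolate variation shared among arrays of a group. The named genes were chosen for that likeness, and no test bears on it.

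Markers of the cell types of fetal liver were read the same way, against 25.5% of all genes higher and 21.0% lower. All 9 tested erythroid markers were lower in KO livers by their brightest probe set, with a median of -1.07, Ank1 and Tspo2 at -3.02 and -2.57, and a summed log2 level of 15.4 to 15.6 in KO and 16.7 to 16.8 in WT arrays. A dimmer probe set of Slc4a1, the anion exchanger of red cells, named after its values were seen, went the other way (1.46, adjusted p = 0.0014). Of 12 tested endothelial markers, 9 were higher, with Pecam1 and Kdr at 1.73 and 1.19 and a summed level of 13.2 to 13.6 in KO and 12.9 to 12.97 in WT arrays. Megakaryocyte markers were higher in 6 of 10, at 14.99 to 15.3 in KO and 14.7 to 14.9 in WT arrays, and stellate markers in 6 of 9, at 14.3 to 14.7 in KO and 14.1 in WT arrays. Hepatocyte markers were lower in 7 of 10 and higher in 1, at 17.2 to 17.5 in KO and 17.8 to 18.0 in WT arrays. Macrophage markers were lower in 2 of 13, granulocyte markers higher in 2 of 9, at 15.6 to 16.9 in KO and 15.5 to 15.8 in WT arrays, and lymphoid markers lower in 1 of 3 tested, with 7 lymphoid markers, Cd3e and Pax5 among them, below the floor in both groups. On the deposited scale, the summed erythroid and hepatocyte levels were lower in KO with no overlap, as Sphk1 and Sgpp1 were. The endothelial, megakaryocyte and stellate levels were higher with no overlap, as Acer2, S1pr1 and the brighter S1pr2 probe set were. Among all tested probe sets, 49.8% showed no overlap between the groups. Summed levels were not read under the other scalings. The part of these cell types in the results was not tested.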

How the data were processed

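The 8 arrays, 4 KO and 4 WT by their titles, were read from 1 table in which the authors deposited MAS5.0 signals, linear intensity values scaled to a trimmed mean of 500.0. MAS5 and R 3.0.2 are credited in the processing notes of the submitters. Probe sets took their symbol from the platform annotation: 34945 had 1 symbol, 932 had several and were not named, and 64 were controls. Signals were taken as log2 without further normalization, and probe sets with a KO or WT mean above log2 of 100 were kept. KO was compared with WT by limma 3.58.1 (R 4.3.3, Python 3.11.15), with Benjamini-Hochberg adjustment over all 23379 tested probe sets, and the fit was tested on simulated data. Genes on lists were read by their brightest probe set. Named are the 8 genes, Klf1, up to 2 called rises and 2 called falls per list, and the 3 genes most like Acer2 and Sphk1. The members and lists were chosen with earlier results of these data known. The alternatives were other scalings, pseudocounts of 16 and 64, other filters, limma with trend and robust, the methods' t-test, a replicate block and each array left out. MAS5 gives small signals high error, so values near 100 are less certain, and the number of arrays limits precision. List genes without a probe set of 1 symbol were not analysed here.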

Additional observations from a re-analysis of the deposited data

Results flagged for a closer look

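In 2 of 30 groups of 4 arrays, 1 array lay far from the other 3 by Dixon's test, and chance marks about 1 group in 20. Sphk2 1417431_a_at had a log2 signal of 8.05 in KO replicate 3, where the other KO arrays held 8.37 to 8.42. Sphk1 1420566_at, which was under the floor in both groups, had 5.73 in WT replicate 1, where the other WT arrays held 5.37 to 5.40.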

How the results depend on the processing

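The call and direction of Klf1, Sphk1 1451596_a_at, Acer2 1451355_at and Sgpp1 1420822_s_at were the same under every alternative run. Of the 12 S1P probe sets, those higher in KO numbered 1 with quantile normalization and 7 with hybridisation controls, and those lower in KO 2 with hybridisation controls. With hybridisation controls Asah1 was at 0.72 and Sgpp1 1450015_x_at at 0.16, both against their sign on the deposited scale. Of these, Asah1 was called higher (adjusted p = 0.0012) and Sgpp1 1450015_x_at was not called (adjusted p = 0.33). Sphk2 1417431_a_at, Sgpl1 1415893_at and S1pr2 1447880_x_at were also called higher there (adjusted p = 9.6e-04, 0.023 and 0.042). Over all probe sets, 8049 were higher and 4146 lower (66.0% of calls higher). These became 5059 and 7366 at the 75th percentile (40.7%) and 19393 and 562 with hybridisation controls (97.2%), while quantile normalization gave 49.4% higher and a replicate block 2201 lower. Wider sphingolipid genes higher in KO numbered 10 of 38 tested with quantile normalization, 5 of 38 at the 75th percentile and 33 of 39 with hybridisation controls. They numbered 6 of 39 with poly-A controls, 7 of 47 with no filter and 10 of 38 with the methods' t-test. Over all tested probe sets, those higher numbered 5441 of 23355, 5059 of 23256, 19393 of 24582, 5719 of 23294, 6815 of 45037 and 6205 of 23379 in the same order. Wider genes lower in KO numbered 11 of 38 at the 75th percentile, 0 of 39 with hybridisation controls, 2 of 39 with poly-A controls and 7 of 38 with trend and robust. Over all tested probe sets, those lower numbered 7366, 562, 3040 and 4463 in the same order. The cause was not tested. With 1 array left out, Klf1 ranged from -3.35 to -3.26, all probe sets higher from 7139 to 7977 and lower from 3462 to 4223, S1P probe sets higher stayed at 3 and lower ranged from 4 to 5, and wider genes higher ranged from 12 to 17 and lower from 3 to 6. The fifth lower S1P probe set was Sgpl1 1415892_at, without KO replicate 5, and it was also called lower with quantile normalization and at the 75th percentile. Both groups hold replicates 2, 3 and 4, whose deviations from the group means correlated at -8.4e-04, -0.082 and -0.027 between KO and WT arrays. These values do not settle whether replicate numbers pair the samples, and KO replicate 5 and WT replicate 1 had no partner. With the replicate block the S1P counts were 3 higher and 4 lower, and the wider genes 6 higher and 1 lower of 38. Over all 23379 tested probe sets, 5579 were then higher and 2201 lower.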
